A study of Mus musculus with 8 samples.

Results

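Genes of 2 vascular growth pathways, 9 in all, were followed in murine knee cartilage after joint destabilisation. They encode 4 ligands of the vascular endothelial growth factor (VEGF) family (Vegfa, Vegfb, Vegfc and Pgf), the 3 VEGF receptors (Kdr, Flt1 and Flt4) and 2 angiopoietins (Angpt1 and Angpt2). They were taken from the table by name. The 9 genes, and the gene lists used below, were chosen with earlier results of these data known. All 9 were among its 50462 gene identifiers and among the 17760 genes that could be tested. Libraries came from caps of cartilage from the medial knee of wild-type male C57BL/6J mice, with 1 library per mouse. Naïve mice were unoperated and taken at day 0, when 11 weeks old (n = 4). DMM mice had the medial meniscus of the left knee destabilised at 11 weeks by cutting the ligament that ties it to the tibia, a model of post-traumatic osteoarthritis, and were taken at day 42, when 17 weeks old (n = 4). Operated mice were thus also older, and without a sham group among the samples the effects of surgery and of age cannot be told apart here.

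VEGF ligands are secreted dimers that bind receptor tyrosine kinases, which are found mainly on endothelial cells. Kdr carries most of the growth signal of Vegfa. Flt1 binds Vegfa, Vegfb and Pgf tightly with weak kinase activity and is also made as a soluble decoy. Flt4 binds Vegfc and is best known on lymphatic vessels. Angiopoietins act on the receptor Tek: Angpt1 activates it and steadies vessels, whereas Angpt2 opposes Angpt1 in many settings. Healthy articular cartilage holds no vessels, while Vegfa made by hypertrophic chondrocytes draws vessels into growth cartilage, and vessels cross from bone into cartilage in osteoarthritis.

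The table holds estimated counts, with 12479400 to 16548000 per library. They were scaled between libraries by DESeq2 median-of-ratios factors, and the result is called the normalised count here. Although the labels give chondrocytes, markers of bone and marrow were abundant. The 9 summed chondrocyte markers held 0.702% of naïve and 1.16% of DMM counts, compared with 0.961% and 2.53% for 6 osteoblast and osteocyte markers and 1.02% and 0.618% for 8 neutrophil markers. Summed markers of 14 blood endothelial genes held 0.0343% and 0.0506%. Single genes weighed heavily in some sums. Mean normalised counts of Col1a1 were 137560.5 of 145401.7 in the naïve osteoblast and osteocyte sum and 323535.5 of 339260.2 in DMM. Those of Prg4 were 55406.3 of 104267.2 in the naïve chondrocyte sum and 38199.1 of 154853 in DMM. These shares therefore do not measure amounts of cell types. Among genes averaging 10 or more normalised counts the median log2 change was -0.01, and scaling libraries by their totals instead shifted it to 0.14.

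A gene is called here at a DESeq2 adjusted p of 0.05 or less, over all genes tested, with a change of at least 1.5-fold. Of the 9 genes, 3 were called and all of these rose: Vegfa, Vegfc and Flt1. Over all tested genes, 13.7% were called, 7.75% as higher in DMM and 5.92% as lower. Without the fold threshold, 5 of the 9 genes passed, against 22.6% of all genes, with Kdr higher and Angpt1 lower. For 5 of the 9 genes, Vegfa, Vegfc, Kdr, Flt1 and Angpt1, naïve and DMM counts did not overlap, as for 22.2% of all tested genes. The median log2 change of the 9 genes was 0.36, beside -0.02 over all genes tested. Several calls lay close to the fold threshold, and the number called fell to 0 without naïve replicate 1 or without naïve replicate 2, and to 1 without DMM replicate 1.

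The promoters of the called genes are shown because they are where transcription of these genes starts. Of the 9 genes, 7 had an entry in the RefSeq promoter table (GRCm38.p6), and the angiopoietins had none. Each sequence below is the 250 bases before the start, read 5′ to 3′ on the strand of the gene. Vegfa has 2 entries, of which the upstream one is printed. Capitals mark matches on either strand to the GC box, the TATA box and the cyclic AMP response element, whose letters are given after the sequences.

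Vegfa, chr17:46032378-46032627, minus strand: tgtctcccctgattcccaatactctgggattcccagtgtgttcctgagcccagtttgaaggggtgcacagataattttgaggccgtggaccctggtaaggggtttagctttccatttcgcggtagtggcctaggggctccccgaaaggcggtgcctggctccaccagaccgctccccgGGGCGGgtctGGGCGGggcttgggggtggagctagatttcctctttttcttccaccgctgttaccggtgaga

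Vegfc, chr8:54077282-54077531, plus strand: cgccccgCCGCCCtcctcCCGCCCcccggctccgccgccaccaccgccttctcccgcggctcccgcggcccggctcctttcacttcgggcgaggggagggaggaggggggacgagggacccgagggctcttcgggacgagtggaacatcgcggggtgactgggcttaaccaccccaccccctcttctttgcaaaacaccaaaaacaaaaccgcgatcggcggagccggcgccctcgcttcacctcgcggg

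Flt1, chr5:147726012-147726261, minus strand: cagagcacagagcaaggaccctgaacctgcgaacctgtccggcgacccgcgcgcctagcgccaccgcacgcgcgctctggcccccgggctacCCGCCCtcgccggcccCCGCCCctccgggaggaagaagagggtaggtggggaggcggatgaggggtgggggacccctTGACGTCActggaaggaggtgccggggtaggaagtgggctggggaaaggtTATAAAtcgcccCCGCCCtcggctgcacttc

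GC boxes occurred 2 times in the Vegfa window, 2 times in the Vegfc window and 3 times in the Flt1 window. The Flt1 window also held a TATA box 31 bases and a cyclic AMP response element 81 bases before the start. Among 32817 mouse promoter windows of the same length, 32.7% held the GC box on either strand, searched as GGGCGG. The TATA box, searched as TATAAA, was in 12.4% of them. The cyclic AMP response element, searched as TGACGTCA, was in 1.55% of them. The hypoxia response element core was searched on both strands only as the letters ACGTG (in 16.6% of windows). These letters were not in the 3 windows printed. Other forms of the core, such as GCGTG, and bases further upstream were not searched. ACGTG occurred once in the second Vegfa entry (chr17:46025164-46025413), 211 bases before that start, and in none of the other windows of the 7 genes. The window of this second entry lies inside the Vegfa gene, and its start is 282 bases from the nearest annotated transcript start. These matches describe the letters of the windows and do not show that any factor binds.

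Vegfa, the main driver of vessel growth (chromosome 17, 46016993 to 46032369, minus strand, 7 exons in its longest coding transcript), rose in DMM cartilage. Its normalised counts were 616.5, 492.2, 799.5 and 858.3 in naïve replicates 1 to 4 and 971.1, 933.1, 1015.8 and 1375.4 in DMM replicates 1 to 4. The groups did not overlap, naïve replicates 1 and 2 were the lowest libraries, and DMM replicate 4 was the highest. The mean went from 691.6 ± 168.2 to 1073.9 ± 203.9 (SD, n = 4 each), a log2 change of 0.63 with an SE of 0.19 (1.55-fold, DESeq2 adjusted p = 0.0075). The adjusted p stayed at or under 0.0439 whichever library was left out, while the change fell under 1.5-fold in 3 of these 8 fits. In bulk RNA a change in the number of cells that make a transcript and a change in its level per cell cannot be told apart. Counts were summed over the transcripts of a gene, so the isoforms of Vegfa, which differ in how they bind matrix, were not separated.

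Hypertrophic chondrocytes are a known source of Vegfa, and a list of 6 of their markers moved with the groups. Bone cells also make some of these genes, among them Alpl, Ibsp and Runx2. The list therefore does not separate hypertrophic chondrocytes from bone cells. Of the 6 markers, 5 were called higher and none lower. Their sum ranged from 16842.3 to 23108.9 normalised counts in naïve and from 32904.2 to 69525.0 in DMM libraries (p = 0.0286 in a two-sided exact permutation test, which is the lowest that 4 against 4 mice can give, adjusted p = 0.0667 over 14 marker lists). The highest sum was in DMM replicate 4, which also had the highest Vegfa. Ibsp alone gave 39895.2 of the 69525.0 counts in that sum. Col10a1 was nearly level in DMM replicates 4 and 2, at 15416 and 14858.5, whereas Vegfa was 1375.4 and 933.1 there. Osteoblast and osteocyte markers, with 6 of 6 called higher, ranged from 114666.9 to 205866.0 in naïve and from 285653.3 to 398939.1 in DMM libraries, with the same p-values. Their part in the change of Vegfa was not tested.

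Vegfc, the ligand best known for lymphatic growth (chromosome 8, 54077606 to 54187096, plus strand), rose by the same factor from a lower level. Its normalised counts were 77.4, 67.8, 94.2 and 51.0 in naïve replicates 1 to 4 and 131.0, 111.8, 108.7 and 99.3 in DMM replicates 1 to 4. The groups did not overlap, although naïve replicate 3 lay only just under DMM replicate 4. The mean went from 72.6 ± 18.0 to 112.7 ± 13.3 (SD, n = 4 each), a log2 change of 0.63 with an SE of 0.22 (1.55-fold, DESeq2 adjusted p = 0.0245). This call was the least stable of the 3: it held in 3 of the 8 fits that left out a library, where the adjusted p reached 0.121.

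Vegfb and Pgf, the ligands that bind Flt1 and not Kdr, were not called. Vegfb (chromosome 19, 6982473 to 6987651, minus strand) had 163.6, 204.9, 148.8 and 186.0 normalised counts in naïve and 191.6, 216.1, 187.7 and 126.4 in DMM replicates 1 to 4. These ranges overlapped almost fully, and DMM replicate 4, the highest for Vegfa, was the lowest for Vegfb. The log2 difference of Vegfb was 0.04 (95% interval -0.34 to 0.42, DESeq2 adjusted p = 0.923), so a change in either direction was not detectable. Pgf (chromosome 12, 85166635 to 85177790, minus strand), placental growth factor, had 65.1, 54.5, 73.8 and 81.6 normalised counts in naïve and 90.4, 105.3, 76.6 and 104.7 in DMM replicates 1 to 4. Only DMM replicate 3 fell inside the naïve range. The log2 difference of Pgf was 0.45 with a 95% interval of 0.03 to 0.87, but its DESeq2 adjusted p was 0.119. Pgf was called only under scaling by total counts (0.60, adjusted p = 0.0465).

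**Figure D1:**
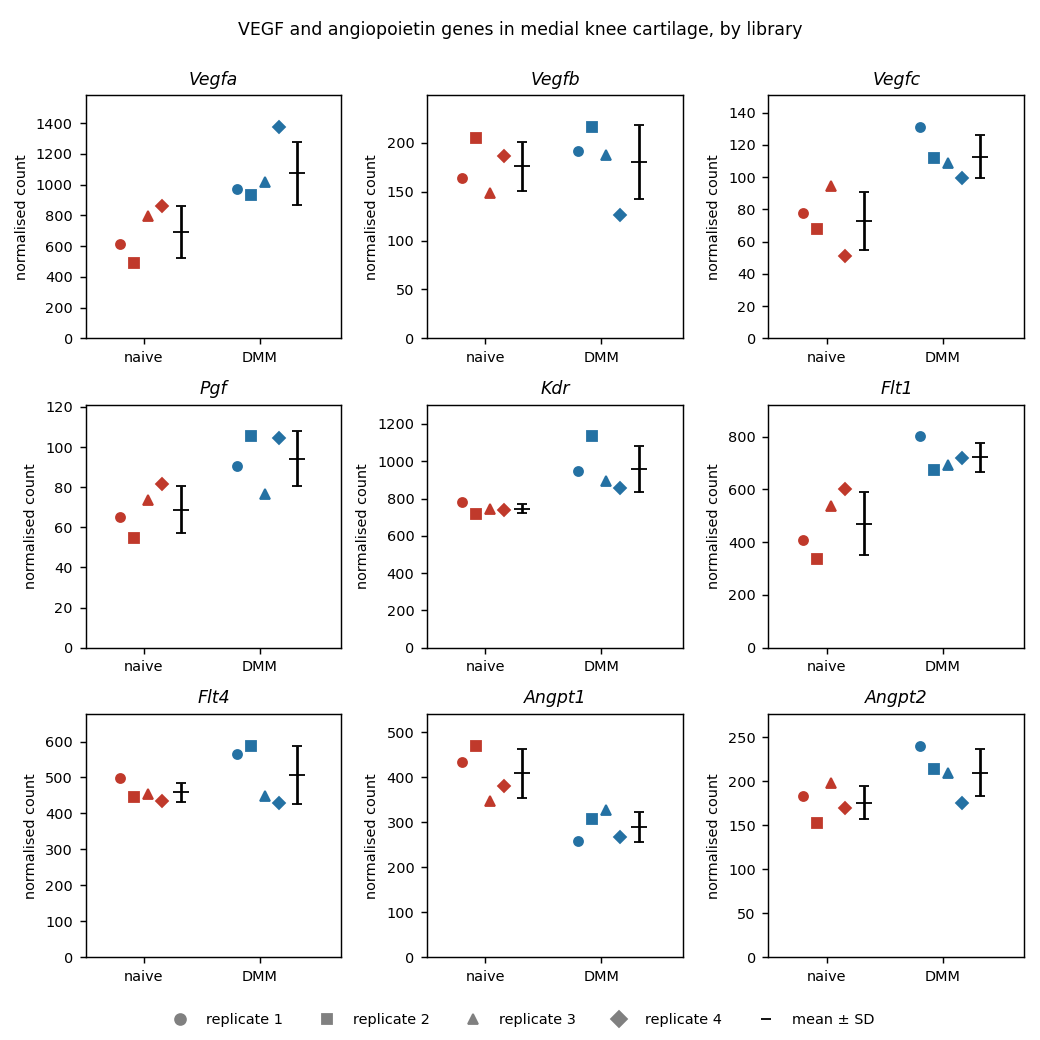
Normalised counts of the 9 genes in each of the 8 libraries, with 1 panel per gene and its own vertical axis from 0; symbols are replicates, and bars give the group mean ± SD (n = 4). Vegfa, Vegfc, Kdr and Flt1 lie higher in every DMM library than in any naïve one, Angpt1 lies lower, and the other 4 genes overlap.

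Among the 3 receptors, Flt1 was the one called. Flt1 (chromosome 5, 147561604 to 147726011, minus strand, 30 exons in its longest coding transcript) had 406.3, 336.6, 536.2 and 600.9 normalised counts in naïve and 800.3, 672.9, 692.3 and 718.4 in DMM replicates 1 to 4. The groups did not overlap, and naïve replicates 1 and 2 were again the lowest libraries. The mean went from 470.0 ± 120.3 to 721.0 ± 56.0 (SD, n = 4 each), a log2 change of 0.62 with an SE of 0.18 (1.53-fold, DESeq2 adjusted p = 0.00449). The adjusted p stayed at or under 0.0337 in all 8 fits without a library, and the change stayed at 1.5-fold or more in 5 of them. The full-length receptor and the soluble decoy are made from the same gene and were not separated.

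Kdr (chromosome 5, 75932827 to 75978458, minus strand), the main signalling receptor of endothelial cells, was higher in DMM by less than 1.5-fold. Its normalised counts were tight in naïve replicates 1 to 4, at 780.9, 718.4, 744.9 and 739.3, and wider in DMM replicates 1 to 4, at 948.7, 1133.0, 892.4 and 855.6. The groups did not overlap, with a log2 difference of 0.36 and an SE of 0.12 (1.28-fold, DESeq2 adjusted p = 0.0139). Kdr kept its adjusted p under 0.05 in 5 of 8 fits with a library removed. Flt4 (chromosome 11, 49609263 to 49652739, plus strand) had 497.7, 447.0, 454.9 and 434.3 normalised counts in naïve and 566.4, 588.0, 447.8 and 427.8 in DMM replicates 1 to 4. DMM replicates 1 and 2 lay above all naïve libraries and DMM replicates 3 and 4 among or under them. The log2 difference of Flt4 was 0.14 (95% interval -0.13 to 0.42, DESeq2 adjusted p = 0.522).

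Markers of vessel cells were also measured beside the receptors. The 14 blood endothelial markers summed to 4705.5 to 5368.8 normalised counts in naïve and 6486.9 to 7234.7 in DMM libraries (log2 difference 0.41, p = 0.0286 in the same exact test, adjusted p = 0.0667 over 14 lists). Of these markers, 9 were called higher and none lower, and all were above 0 in some library. Cdh5, the adhesion protein of endothelial junctions, rose from 848.7 ± 93.5 to 1313.8 ± 62.6 (SD, n = 4 each), with a log2 change of 0.63 and a DESeq2 adjusted p of 5.61e-07. Emcn, a sialomucin of capillaries, rose with a log2 change of 0.69 (SE 0.23, adjusted p = 0.0188), a call held in 4 of 8 fits without a library and lost in edgeR (adjusted p = 0.0549). Pecam1, which platelets and leukocytes also carry, had a log2 difference of -0.03 (adjusted p = 0.927), and its sign turned under scaling by total counts or TMM factors. Pecam1 was not alone: Erg differed by -0.007 (DESeq2 adjusted p = 0.977). Esam (0.28, adjusted p = 0.202), Ecscr (0.59, adjusted p = 0.101) and Ramp2 (0.58, adjusted p = 0.00343, under 1.5-fold) were not called either. Markers of mural cells, the pericytes and smooth muscle cells that wrap vessels, ranged from 3417.4 to 5779.2 in naïve and from 7382.6 to 9106.4 in DMM libraries (p = 0.0286 and adjusted p = 0.0667 by the same exact test), with 5 of 8 called higher.

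Relative to the endothelial sum of the same library, no receptor differed detectably between groups when all 14 markers were summed. The size of these differences depended on Pecam1. The log2 ratio of Kdr to the summed endothelial markers was -2.77 ± 0.08 in naïve and -2.83 ± 0.11 in DMM libraries (SD, n = 4 each, p = 0.371 in the exact permutation test). For Flt1 the difference in this log2 ratio was 0.24 (p = 0.229), and for Flt4 it was -0.28 (p = 0.0857, the same exact test, with adjusted p-values of at least 0.343 for all 3 over 8 ratios). The log2 ratio of Flt1 to Kdr was -0.70 ± 0.38 in naïve and -0.40 ± 0.24 in DMM libraries (exact p = 0.20). Pecam1 held 31.8% of the endothelial sum in naïve and 23.6% in DMM libraries. Without it, an alternative chosen after seeing the data, the sum differed by 0.58 on the log2 scale and the log2 ratio of Flt4 by -0.44, with no overlap (p = 0.0286 in the exact permutation test, not adjusted). The ratio of Kdr then differed by -0.22 (exact p = 0.0571) and that of Flt1 by 0.07 (exact p = 0.657). At n = 4, a p above 0.05 does not show that the ratios were alike. Whether vessel cells carried the higher Flt1, Kdr and Vegfc counts was not tested.

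**Figure D2:**
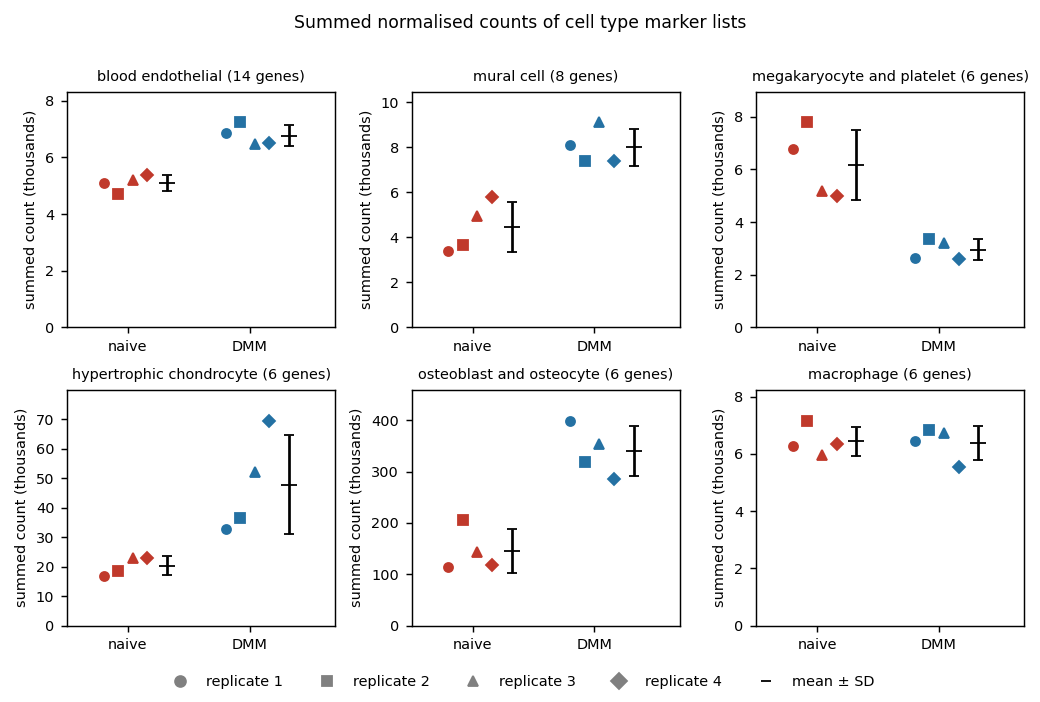
Summed normalised counts (axes from 0) of 6 marker lists in each library, with 1 panel per list; symbols are replicates, and bars give the group mean ± SD (n = 4). Blood endothelial, mural, hypertrophic chondrocyte and osteoblast sums lie higher in every DMM library than in any naïve one, megakaryocyte sums lie lower, and macrophage sums overlap.

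Of the 2 angiopoietins, Angpt1 was lower in DMM by less than 1.5-fold and Angpt2 did not pass the test. Angpt1 (chromosome 15, 42424723 to 42676977, minus strand) had 434.4, 469.6, 347.8 and 381.0 normalised counts in naïve and 257.9, 306.4, 327.6 and 267.1 in DMM replicates 1 to 4. The groups did not overlap, and all DMM libraries were lower. The log2 change of Angpt1 was -0.49 with an SE of 0.15 (DESeq2 adjusted p = 0.00589), under the fold threshold, and it passed the adjusted p in all 8 fits without a library. Scaling by total counts gave -0.34 with an adjusted p of 0.0545. Angpt1 overlaps the gene Gm17473, and 14.1% of its 31-base words also occur in transcripts of other genes, so part of its count is less certain than for the other 8 genes, which share at most 0.711%.

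Angpt2 (chromosome 8, 18690263 to 18741562, minus strand, overlapping Mcph1) had 182.9, 153.0, 198.0 and 170.1 normalised counts in naïve and 240.5, 213.9, 209.9 and 175.1 in DMM replicates 1 to 4. DMM replicate 4 lay inside the naïve range and the other DMM libraries above it. The log2 difference of Angpt2 was 0.25 (95% interval -0.06 to 0.56, DESeq2 adjusted p = 0.272). A ratio within a library does not depend on the scaling between libraries. The ratio of Angpt2 to Angpt1 per kilobase of transcript was 0.505, 0.391, 0.682 and 0.535 in naïve and 1.12, 0.836, 0.767 and 0.785 in DMM replicates 1 to 4. Every DMM library had a higher ratio than any naïve library, by 1.67-fold on average (log2 difference 0.74, exact permutation test, two-sided p = 0.0286, adjusted p = 0.229 over 8 ratios). It therefore did not pass after adjustment, and at this group size it could have passed only if several ratios had reached the smallest p.

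Angpt1 is also made by megakaryocytes and marrow stromal cells, and marrow markers were lower in DMM. Megakaryocyte and platelet markers summed to 5001.4 to 7785.3 normalised counts in naïve and 2613.7 to 3376.5 in DMM libraries, with 5 of 6 called lower. Naïve replicates 1 and 2 had the highest megakaryocyte sums and the highest Angpt1 counts. Neutrophil markers, 8 of 8 called lower, went from 118387.0 to 177506.6 in naïve to between 51715.3 and 106062.8 in DMM libraries (both lists p = 0.0286, adjusted p = 0.0667, two-sided exact permutation test). Marrow stromal markers, among them Lepr and Cxcl12, overlapped between groups at 11047.2 to 14700.1 and 10697.6 to 18057.7 (p = 0.743, the same exact test). The part of these cells in the change of Angpt1 was not tested.

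**Figure D3:**
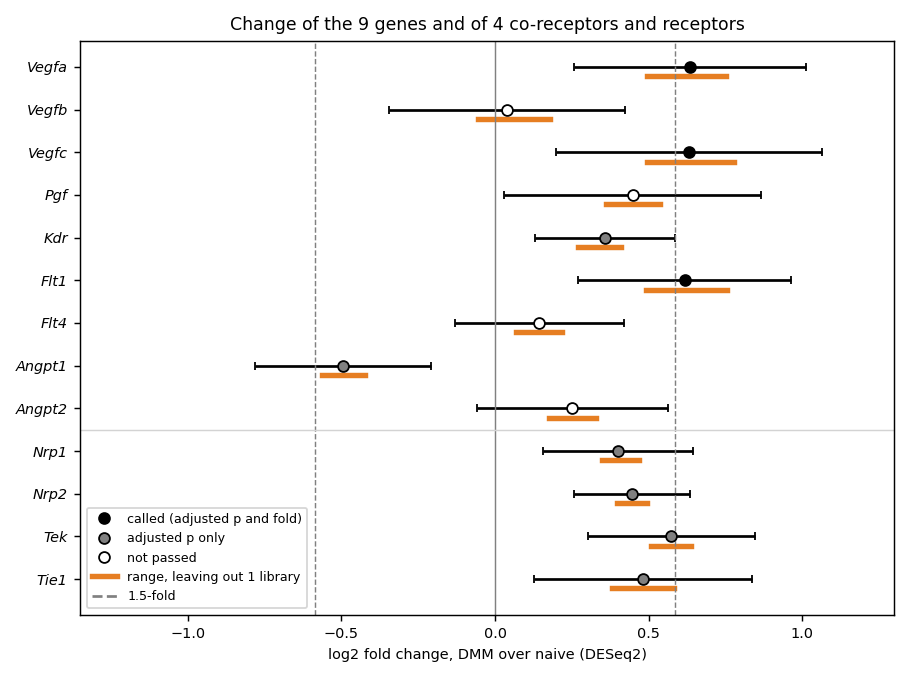
Log2 change, DMM over naïve, of the 9 genes and of Nrp1, Nrp2, Tek and Tie1, with 95% intervals from DESeq2 and, in orange, the range over fits that each left out 1 library; dashed lines mark 1.5-fold. The points of Vegfa, Vegfc and Flt1 lie just past 1.5-fold, their orange ranges cross that line, and the interval of Angpt1 lies wholly below 0.

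**Figure D4:**
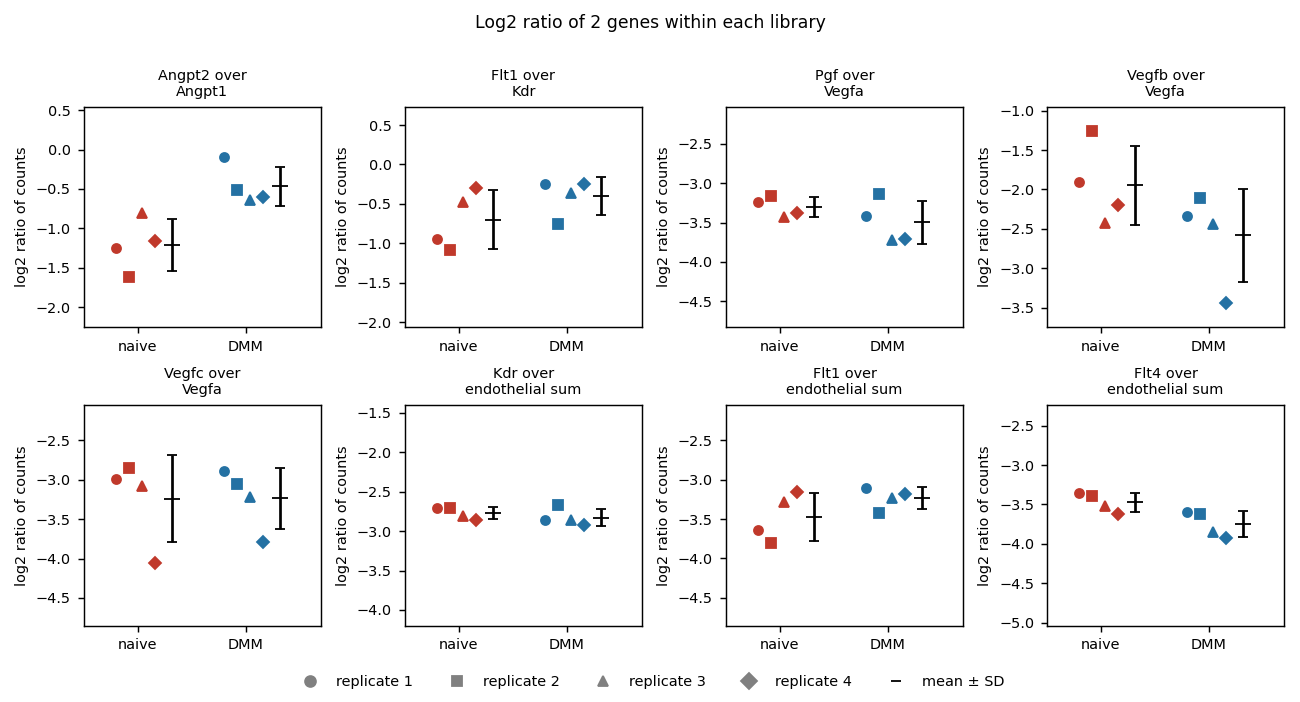
The 8 log2 ratios within each library, before division by length; symbols are replicates, and bars give the group mean ± SD (n = 4). The ratio of Angpt2 to Angpt1 separates the groups and the other 7 ratios overlap.

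Levels were compared between genes per kilobase of the longest coding transcript. In naïve cartilage, Vegfa had the highest level of the 9 genes at 200.4 ± 48.7 normalised counts per kilobase, followed by Vegfb at 137.2 ± 19.3 and Kdr at 125.9 ± 4.39 (SD, n = 4 each). The ranges of these neighbours overlapped, so their order is not firm. Angpt1 was next at 95.8 ± 12.7 and did not overlap Kdr above or Flt4 below. Flt4 at 73.3 ± 4.40 overlapped Flt1 at 68.2 ± 17.4, and Flt1 overlapped Angpt2 at 49.4 ± 5.37. Pgf at 33.1 ± 5.60 and Vegfc at 29.6 ± 7.37 were the lowest and overlapped each other.

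In DMM cartilage the level of Vegfa, 311.2 ± 59.1 per kilobase, no longer overlapped that of the next gene, Kdr at 161.6 ± 20.8 (SD, n = 4 each). Vegfb at 140.8 ± 29.8 overlapped Kdr. Flt1, at 104.6 ± 8.13, was the fourth and did not overlap Flt4 at 81.1 ± 13.0, whereas Angpt1, at 68.0 ± 7.71, was the sixth and overlapped both Flt4 and Angpt2 at 58.9 ± 7.54. Vegfc at 46.0 ± 5.44 and Pgf at 45.3 ± 6.57 remained the lowest. The order and overlaps of several genes depend on the length used. Divided by all merged exons, Flt1 was the seventh in both groups, at 34.8 ± 8.91 and 53.4 ± 4.15. Naïve Angpt1 (66.8 to 90.2) then overlapped Kdr (79.6 to 86.5), whereas naïve Vegfb (92.7 to 127.6) did not. In DMM libraries Vegfb, at 112.4, then ranked above Kdr, at 106.

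**Figure D5:**
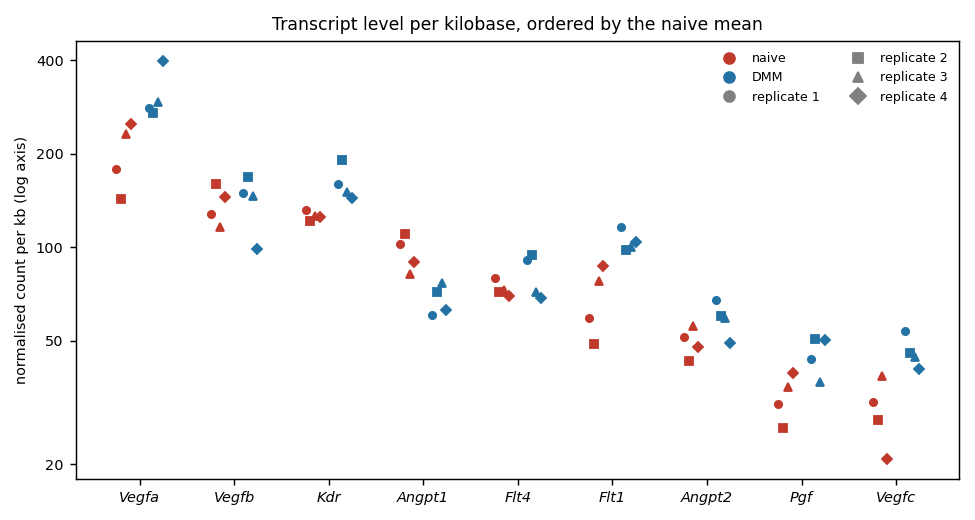
Normalised counts per kilobase of the longest coding transcript (log axis) for the 9 genes, ordered by their naïve mean; symbols are libraries. Vegfa has the highest mean in both groups, and Flt1 and Angpt1 exchange places in the order of means.

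As a share of the 4 ligands per kilobase, Vegfa made up 49.5% ± 7.04 in naïve and 57.0% ± 7.59 in DMM libraries, and Vegfb 34.7% ± 7.35 and 26.2% ± 6.46 (SD, n = 4 each). DMM replicate 4 had the highest share of Vegfa, 67.8%, and the lowest of Vegfb, 16.8%. The log2 ratio of Vegfb to Vegfa differed by -0.63 between groups, with overlap (exact permutation test, two-sided p = 0.171). The log2 ratio of Vegfc to Vegfa differed by 0.01, and leaving out a library moved this difference between -0.27 and 0.19. The log2 ratio of Pgf to Vegfa differed by -0.20 (exact p = 0.286). Among receptors, Kdr made up 47.2% ± 2.74 and 46.5% ± 2.65, Flt1 25.3% ± 5.13 and 30.3% ± 3.28, and Flt4 27.5% ± 2.42 and 23.3% ± 1.60 in naïve and DMM libraries.

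The other genes of these pathways were described by 8 lists of 62 genes, of which 20 were called higher and 1 lower. Over all tested genes 7.75% were called higher and 5.92% lower, and each list below is to be read beside these shares. Vegfd and Angpt4, the remaining ligands of both families, were not called by DESeq2, edgeR or limma-voom, with log2 differences of 0.25 (adjusted p = 0.749) and 0.41 (adjusted p = 0.288) in DESeq2 and 0 of 2 under an unadjusted p of 0.05. Tek, the angiopoietin receptor, was higher in every DMM library: its counts were 236.6, 226.2, 297.5 and 301.6 in naïve and 422.9, 394.5, 370.4 and 391.7 in DMM replicates 1 to 4. Its log2 difference of 0.57 (SE 0.14, DESeq2 adjusted p = 0.000574) lay just under 1.5-fold, and under TMM factors or by edgeR it was called. Tie1, the partner of Tek, differed by 0.48 (adjusted p = 0.037), with overlapping groups. Tie1 passed the adjusted p in 3 of 8 fits without a library and not by edgeR (0.0531), limma-voom (0.0588), or DESeq2 with no low-count filter (0.0717) or with the replicate block (0.10). The neuropilins, co-receptors for VEGF and semaphorins, also passed the adjusted p below 1.5-fold. Nrp1 differed by 0.40 (adjusted p = 0.00934) and Nrp2 by 0.45 (adjusted p = 8.16e-05, groups not overlapping).

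Of 4 extracellular modulators, 2 were called higher, and 3 were higher at the adjusted p alone. Ptprb, the endothelial phosphatase that restrains Tek, went from 973.5 ± 162.5 to 1689.2 ± 148.2 (SD, n = 4 each), a log2 change of 0.79 with a DESeq2 adjusted p of 6.99e-07. Svep1, a large matrix protein that can bind angiopoietins, rose by 0.92 on the log2 scale (adjusted p = 0.000481). Both were called in all 8 fits that left out a library. Of 13 intracellular signalling genes, 3 were called higher and 1 lower. At the adjusted p alone, 5 were higher and 1 lower. Plcg1, the phospholipase recruited by Kdr, changed by 0.65 (adjusted p = 3.48e-06), and the adaptor Grb14 by 0.75 (adjusted p = 0.000269). Nos3, the endothelial nitric oxide synthase, was the other called higher (1.24, adjusted p = 0.0227), a call held in 6 of 8 fits without a library. Dok2, an adaptor that binds Tek and is abundant in blood cells, fell by 0.71 on the log2 scale (adjusted p = 0.00314).

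Genes that endothelial cells switch on in response to VEGF or in sprouting had 6 of 8 members called, all higher. Rcan1, an inhibitor of calcineurin induced by VEGF, rose by 0.92 on the log2 scale (adjusted p = 6.14e-05), Aplnr, the apelin receptor, by 1.12 (adjusted p = 0.000102), and Nr4a1, an early response receptor, by 0.80 (DESeq2 adjusted p = 0.000267). Dll4, the Notch ligand of tip cells, Apln, the ligand of Aplnr, and Egr3 were the others, with changes of 0.93, 1.13 and 1.05. Aplnr had 87.9, 113.1, 157.3 and 193.9 normalised counts in naïve and 351.6, 279.5, 229.7 and 334.8 in DMM replicates 1 to 4, with no overlap. Esm1, a marker of endothelial tip cells, and Hlx were the 2 not called, at -0.09 (adjusted p = 0.84) and -0.20 (adjusted p = 0.359). Rcan1, Egr3 and Nr4a1 are not restricted to endothelial cells. Blood endothelial markers moved with this list, with 9 of 14 called higher and a median log2 change of 0.63, beside 0.93 for the list, and their part in it was not tested.

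Of 11 secreted inhibitors of vessel growth and matrix proteins that bind VEGF, 7 were called higher, 0 lower and 4 were not called. Col18a1, the parent of endostatin, had the smallest adjusted p: its normalised counts were 164.4, 196.9, 326.4 and 405.9 in naïve and 1082.2, 652.5, 1076.8 and 799.6 in DMM replicates 1 to 4. All DMM libraries were well above the naïve ones (log2 change 1.72, SE 0.27, DESeq2 adjusted p = 1.66e-08). Sparc, an abundant bone matrix protein, rose by 0.92 (adjusted p = 6.9e-08) and Serpinf1, which encodes pigment epithelium-derived factor, by 1.17 (adjusted p = 5.7e-07). Tnmd, Thbs2, Vash1 and Adamts1 were also called. Thbs2 (adjusted p = 0.0411) overlapped between groups and held its call in 4 of 8 fits without a library. Adamts1 overlapped as well, and Tnmd averaged only 10.1 normalised counts in naïve libraries. Thbs1, which platelets store, went the other way at -0.56 (adjusted p = 9.03e-05) without reaching 1.5-fold in that direction, and is named after its values were seen.

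The oxygen sensing factors, which set hypoxic transcription of Vegfa, had 0 of 8 members called by DESeq2 and limma-voom and 1 by edgeR. At both an unadjusted p of 0.05 and the adjusted p alone, 3 passed in DESeq2. These 3, named after their values were seen, were Hif1a at 0.58 (adjusted p = 0.00109), Epas1 at 0.39 (adjusted p = 0.00942) and Egln1 at 0.31 (adjusted p = 0.00631). The median log2 change of the list was 0.07. Of 12 genes induced by hypoxia, 2 (16.7%) were called, a share near the 13.7% of all genes: P4ha1, a collagen prolyl hydroxylase subunit (0.90, adjusted p = 0.000143), and Ankrd37 (1.01, adjusted p = 0.00937, lost in 2 of 8 fits without a library). Both called genes rose, beside 7.75% called higher over all tested genes. Ndrg1, named after its values were seen, passed the adjusted p under 1.5-fold (0.50, adjusted p = 0.00713). The median of that list was 0.13, and glycolytic members such as Ldha (0.02, adjusted p = 0.926) were not called. HIF activity is set largely by protein stability, which RNA counts do not measure.

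Genes with the most similar pattern over the 8 libraries were sought for each called gene, by the root mean square difference of centred log2 values among 11038 or 11039 genes averaging 100 or more normalised counts. For Vegfa these were Cep112 (0.111) and Yes1 (0.112), for Flt1 they were Ptpn13 (0.0747) and Lncpint (0.0865), and for Vegfc they were Lipc (0.137) and Gfra1 (0.173). The smaller values for Flt1 mean that its profile was matched more closely than that of Vegfc, which has lower counts. Yes1, Ptpn13 and Gfra1 were themselves called higher, with log2 changes of 0.61, 0.64 and 0.73. Cep112, Lipc and Lncpint were not called, with 0.57, 0.51 and 0.545. Similar changes follow from picking these genes by their likeness to a called gene, so they are no separate result.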

How the data were processed

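The authors trimmed reads, pseudo-aligned them with Kallisto and summed transcripts to genes with tximport, and deposited estimated counts; 39% of all values, zeros included, lie more than 1e-06 from a whole number. The submitters' processing notes list GRCh38, whereas the methods of the study name GRCm38 with an Ensembl release made for another mouse assembly, so the build behind the counts is uncertain; coordinates are from GENCODE vM21 (GRCm38), matched by gene identifier. Labels and methods name different library kits, and use of strand was not stated. A symbol was found for 48855 identifiers.

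Estimated counts were rounded to integers and tested with DESeq2 1.42.0 in R 4.3.3 (Wald test, default filters, no covariates, unshrunken changes), the test the study names. Alternatives were edgeR 4.0.16, limma-voom 3.58.1, TMM factors, total-count scaling, other filters, no fold threshold, a replicate block and leaving out each library. Division by merged exon length and an endothelial sum without Pecam1 were chosen after seeing the data. Ratios added 0.5 to each count, and marker lists and ratios were compared by exact permutation over 70 assignments, two-sided. The scripts were tested on simulated data.

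The genes and lists were chosen with earlier results of these data known. Text names all 9 genes, Tek, Tie1, Nrp1, Nrp2, Pecam1, Cdh5, Emcn, up to 3 called genes with the smallest adjusted p per other pathway list, and the 2 most similar genes per called gene; others named are additions. Replicates are separate mice per the methods of the study, and no pair was merged.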

Additional observations from a re-analysis of the deposited data

Results flagged for a closer look

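By Dixon's test at the 95% level, 4 values stood apart from the others of their group, where chance alone gives about 5.1 among the 102 groups of 4 libraries tested (1 in 20). None was among the 9 genes. Cdh5 had 1407.2 normalised counts in DMM replicate 2 and 1276.2 to 1292.4 in the other DMM libraries. The summed erythroid markers reached 100018.5 in DMM replicate 3, against 46696.5 to 48952.9 in the others. The summed skeletal muscle markers stood apart in naïve replicate 3, at 370.3 beside 26.6 to 82.8, and in DMM replicate 1, at 846.7 beside 30.7 to 95.7.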

How the results depend on the processing

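Across settings other than leaving out a library, Vegfa and Flt1 remained called in 7 of 7. Vegfc lost its call with the replicate block (0.66, adjusted p = 0.0634), as Kdr lost its adjusted p (0.0656). Deviations of log2 counts from the group mean of each gene correlated at 0.05, 0.058, -0.119 and 0.117 between same-numbered libraries. By this measure 1 of 4 libraries matched its own number best, and the numbers were not taken to pair mice. The replicate block called 2081 genes. Scaling by total counts called 489 genes as lower and 0 pathway genes as lower, and gave Pecam1 0.12 and macrophage markers 0.14, both reversed; TMM gave 0.003 and 0.014. Under these scalings the synovial fibroblast sum (0.58 and 0.45) reached the smallest p. Without the fold threshold 4010 genes passed, 1989 of them lower, with 1 of the 9 genes lower and 31 pathway genes higher and 2 lower. The Angpt2 to Angpt1 log2 ratio, 0.74, had an exact p of 0.125 by sign flips within pairs, the smallest these allow. The ratio of Flt4 to the endothelial sum without Pecam1, added after seeing the data, was -0.44 (exact p = 0.0286). The Vegfc to Vegfa ratio was -0.037 with 5 added. Leaving out a library gave 1858 to 2842 calls, 0 to 3 of the 9 genes higher and 1 to 2 pathway genes lower; log2 ranges were -0.055 to 0.179 for Vegfb, -0.105 to 0.062 for Pecam1, -0.048 to 0.055 for macrophage, -0.10 to 0.16 for marrow stromal and -0.60 to 1.22 for skeletal muscle markers, and -0.27 to 0.19 for the Vegfc to Vegfa ratio. edgeR called 2082 genes and limma-voom 2167. The cause was not tested. With 45 to 158 counts per library, Vegfc has the least precise of the 3 called changes.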

Other observations

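Marker lists not described above overlapped between groups, each compared with a two-sided exact permutation test (n = 4 against 4). The 9 chondrocyte markers, 5 of them called higher (Acan, Col2a1, Col11a1, Sox9 and Comp), summed to 74868.7 to 139833.7 normalised counts in naïve and 124193.8 to 182332.4 in DMM libraries (exact p = 0.0857, adjusted p = 0.133). Lymphatic endothelial markers, which include the regulator Prox1 and the chemokine Ccl21a, both called higher by DESeq2 (1 of 3 genes by edgeR and 0 by limma-voom), summed to 50.1 to 197.3 and 47.3 to 469.2 (exact p = 0.20). DMM replicate 2 was the lowest of all libraries for this sum, close to naïve replicate 1 at 50.1, while its Flt4 count was the highest. Ccl21a had 0 normalised counts in DMM replicate 2 and 283.6, 240.4 and 179.6 in DMM replicates 1, 3 and 4. Macrophage markers were 5974.2 to 7157.4 and 5531.6 to 6844.5 (exact p = 0.914), with 0 of 6 called by DESeq2, edgeR or limma-voom and 1 at an unadjusted p of 0.05. Osteoclast markers (log2 difference 0.29, exact p = 0.286) and synovial fibroblast markers (0.42, exact p = 0.0571) had 1 and 2 genes called higher. Erythroid markers had 5 of 6 called lower (-1.08, exact p = 0.0571), and skeletal muscle markers, of which 1 of 5 could be tested, differed by 0.44 (exact p = 0.657).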
